A study of Rattus norvegicus with 16 samples.

Results

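Mx1, Mx2, Ifit1, Ifit2, Ifit3, Isg15, Rsad2, Oasl, Usp18 and Irf7 are genes that type I interferon switches on in mammalian cells, and they are described here in the rat cortex over the first hours after a blow to the brain. They were taken by name, from a list made with earlier results of these data known. Every probe set whose only gene symbol in the array annotation was 1 of the 10 was used. All 10 were found, through 12 of the 20832 probe sets with a single symbol, and they are 10 of 14218 genes measured. Mx2 and Ifit2 each had 2 probe sets, which were averaged, and the other 8 had 1. RNA came from the lateral cortex of male Wistar rats aged 8 weeks, measured on 16 arrays. All rats had a craniectomy over the right parietal cortex 48 h before the procedure. The injured groups received a moderate fluid percussion, a pulse of saline pressure against the dura, and were taken 3, 6, 12 or 48 h later, with 3 arrays at each time. The sham groups had the same surgery without the pulse, with 1 array at each time. The study's design joins the 3, 6 and 12 h shams into a control of 3 arrays, called early shams below, and sets the 48 h sham apart as the control of the 48 h injury. Each array carries a number of its own, but the labels do not say that each was a different animal, so p-values measure the spread between arrays.

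Interferons are secreted proteins that warn cells of infection or damage. Type I interferons bind the receptor pair Ifnar1 and Ifnar2, which act through the kinases Jak1 and Tyk2 on a complex that holds Irf9 and binds a DNA element in the promoters of the effector genes. The effectors block viral replication, and in the brain they are known to be made by microglia, astrocytes, endothelium and infiltrating leukocytes. The 10 genes cover 4 roles. Irf7 is a transcription factor that raises interferon production itself. Isg15 is a ubiquitin-like protein that is attached to other proteins, and Usp18 removes it and also dampens signalling at the receptor. Rsad2 (viperin) makes a chain-terminating nucleotide, Oasl belongs to the oligoadenylate synthetase family, and the Ifit proteins bind viral RNA. Mx1 and Mx2 are dynamin-like GTPases, nuclear and cytoplasmic in the rat.

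The RefSeq promoter table (build GRCr8) held windows for 5 of the 10 genes, Irf7, Ifit3, Rsad2, Mx1 and Oasl. Each window runs from 250 bases before to 50 after the start that the table uses. Both strands were searched for GAAANNGAAA, the core of the interferon-stimulated response element, and for TTCNNNGAA, the core of the gamma-activated site. The first motif was in 3 of the 5 windows, against 3.92% of 33469 windows of this length. Those 3 windows are shown because they hold the motif. Capitals mark the match, which in each lies on the opposite strand. The genes of these windows were among the 6 that rose at 12 h, as was Oasl, whose window held no match. Rsad2 lies at chr6:48788071-48788370 on the minus strand with the match at -147 to -138, Irf7 at chr1:205799974-205800273 on the minus strand with the match at -69 to -60, and Ifit3 at chr1:241527076-241527375 on the plus strand with the match at -44 to -35.
Rsad2: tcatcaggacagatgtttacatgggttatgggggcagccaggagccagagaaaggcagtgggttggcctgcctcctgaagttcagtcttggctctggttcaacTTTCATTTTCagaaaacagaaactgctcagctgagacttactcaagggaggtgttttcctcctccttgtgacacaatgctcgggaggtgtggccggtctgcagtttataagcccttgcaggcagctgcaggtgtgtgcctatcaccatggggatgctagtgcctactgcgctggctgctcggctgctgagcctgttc
Irf7: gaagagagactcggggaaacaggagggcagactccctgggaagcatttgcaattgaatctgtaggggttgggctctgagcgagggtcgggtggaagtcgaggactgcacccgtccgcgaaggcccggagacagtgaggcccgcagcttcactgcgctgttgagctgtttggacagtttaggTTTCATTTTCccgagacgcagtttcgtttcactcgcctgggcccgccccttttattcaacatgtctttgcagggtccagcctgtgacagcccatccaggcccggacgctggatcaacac
Ifit3: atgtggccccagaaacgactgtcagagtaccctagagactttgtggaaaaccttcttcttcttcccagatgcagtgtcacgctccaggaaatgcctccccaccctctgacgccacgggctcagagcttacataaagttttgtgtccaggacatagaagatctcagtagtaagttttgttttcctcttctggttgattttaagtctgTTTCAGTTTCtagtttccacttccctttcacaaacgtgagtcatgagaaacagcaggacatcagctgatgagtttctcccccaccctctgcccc
Rsad2 and Irf7 carried the same 10 letters, TTTCATTTTC, and Ifit3 carried TTTCAGTTTC. The letters of this motif were not in the windows of Mx1 and Oasl, and TTCNNNGAA, which 8.87% of all windows hold, was in 0 of the 5. A match in letters is no evidence of binding.

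The deposited values are log intensities with the median of every probe set over the 16 arrays subtracted, here read as log2. They show how a gene differs between arrays but not how strongly it is expressed or whether it is detected. The labelled tissue could therefore not be checked against the presence of cortical markers. The median over genes lay between -0.01 and 0.01 in every array. The closest pair of arrays differed by a root mean square of 0.184 over genes, so no array was a copy of another. Injured 12 h replicate 2 stood apart in its array control probe sets, which averaged -0.68 against -0.10 to 0.26 in the other arrays, and with injured 48 h replicate 2 it had the widest spread over genes (SD 0.37 and 0.39, against 0.20 to 0.31). Without the first of these, 12 h against the early shams kept its call in 5 of the 6 genes called (Rsad2 3.69, Isg15 2.73, Ifit3 1.96, Usp18 1.75 and Irf7 1.60) and lost it in Oasl. The fall from 12 to 48 h kept its call in 6 of 7 (Rsad2 -3.13, Ifit3 -2.26, Isg15 -2.13, Usp18 -1.39, Irf7 -1.34 and Ifit2 -1.02) and again lost it in Oasl.

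**Figure D1:**
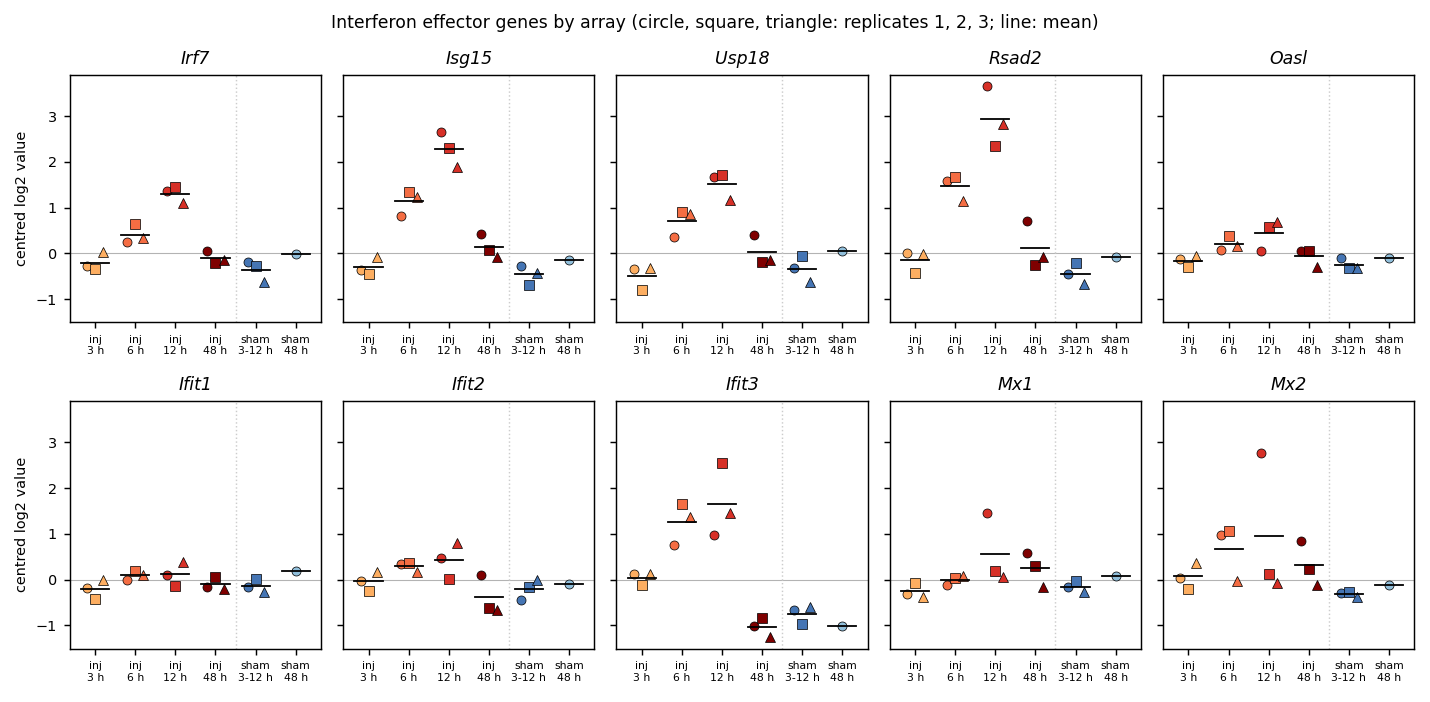
Centred log2 value of the 10 genes (vertical axis) in each injured array at 3, 6, 12 and 48 h, in the 3 early shams and in the 48 h sham (horizontal axis), with a line at the mean. In the injured groups the symbols stand for replicates 1 to 3. In the early shams the same symbols stand for the arrays of 3, 6 and 12 h. Irf7, Isg15, Usp18, Rsad2 and Ifit3 stand above every sham in all arrays of 6 and 12 h, whereas single arrays carry much of the 12 h mean of Mx1 and Mx2.

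At 6 h after injury 5 of the 10 genes were higher than in the early shams, and at 12 h 6 were. The 12 h rises ran from 1.61-fold in Oasl to 10.5-fold in Rsad2, the other 4 being Irf7, Isg15, Usp18 and Ifit3. At 3 h 0 of the 10 were called, and at 48 h 0 of the 10 were called against either control. Calls rest on a linear model fitted to all 14218 genes, with 0.05 as the limit for the adjusted p. Of all genes, 0.485% were called higher at 3 h, 1.98% at 6 h and 3.49% at 12 h. Because the 10 were chosen with earlier results known, shares of all genes are given here and below as description only. The median log2 difference of the 10 was 0.16, 0.87 and 1.46 at 3, 6 and 12 h, beside -0.01, -0.02 and -0.02 over all genes. In whole tissue, more cells of a type that makes an RNA and more RNA per cell cannot be told apart.

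Irf7, the transcription factor of the group, was at -0.28, -0.35 and 0.02 in the 3 arrays at 3 h, at 0.24, 0.65 and 0.34 at 6 h, at 1.36, 1.44 and 1.11 at 12 h and at 0.06, -0.22 and -0.15 at 48 h, against -0.20, -0.27 and -0.62 in the early shams and -0.02 in the 48 h sham. All 6 arrays of 6 and 12 h lay above all 4 shams, with no overlap between the 6 h and the 12 h arrays. The log2 difference from the early shams was 0.77 ± 0.14 at 6 h (SE, adjusted p = 0.00944) and 1.67 ± 0.14 at 12 h (adjusted p = 3e-05), a 3.18-fold rise. Its mean at 12 h was 1.30 ± 0.17, against -0.36 ± 0.23 in the early shams (SD, n = 3 each). The call at 6 h was lost without injured 6 h replicate 2 (adjusted p = 0.0597), while that at 12 h held in each of 6 refits lacking a single array.

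Isg15, the ubiquitin-like modifier, had the smallest adjusted p of the 10 at 6 and at 12 h. Its values were -0.36, -0.46 and -0.07 at 3 h, 0.82, 1.35 and 1.23 at 6 h, 2.65, 2.31 and 1.88 at 12 h and 0.43, 0.07 and -0.09 at 48 h, against -0.27, -0.69 and -0.42 in the early shams and -0.15 in the 48 h sham. The arrays of 3, 6 and 12 h formed 3 separate ranges, and the 48 h arrays overlapped with those of 3 h and lay below those of 6 h. The difference was 1.59 ± 0.20 at 6 h (adjusted p = 0.000553) and 2.74 ± 0.20 at 12 h (adjusted p = 1.06e-05), or 6.68-fold. By p-value it ranked 3 among all genes at 12 h.

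Usp18, which takes Isg15 off its targets and restrains the receptor, was at -0.34, -0.81 and -0.32 at 3 h, 0.35, 0.90 and 0.86 at 6 h, 1.67, 1.71 and 1.17 at 12 h and 0.41, -0.18 and -0.15 at 48 h, against -0.33, -0.05 and -0.62 in the early shams and 0.05 in the 48 h sham. The 6 h and 12 h arrays overlapped neither with each other nor with any sham. The difference was 1.04 ± 0.22 at 6 h (adjusted p = 0.0192) and 1.85 ± 0.22 at 12 h (adjusted p = 0.000291). The 12 h call held in all 6 refits lacking a single array. The 6 h call held in 2 of 6 (highest adjusted p 0.105), and was lost on removing injured 6 h replicate 2, injured 6 h replicate 3, the 3 h sham or the 12 h sham.

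Rsad2 had the largest change of the group. Its values were 0.01, -0.44 and -0.01 at 3 h, 1.59, 1.66 and 1.15 at 6 h, 3.66, 2.34 and 2.83 at 12 h and 0.70, -0.26 and -0.08 at 48 h, against -0.45, -0.22 and -0.67 in the early shams and -0.07 in the 48 h sham. The lowest 12 h array lay above the highest 6 h array, which in turn lay above all shams. The difference was 1.91 ± 0.30 at 6 h (adjusted p = 0.00293) and 3.39 ± 0.30 at 12 h (adjusted p = 3.3e-05).

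Oasl changed less. It was at -0.13, -0.30 and -0.05 at 3 h, 0.08, 0.37 and 0.17 at 6 h, 0.05, 0.57 and 0.69 at 12 h and 0.05, 0.06 and -0.30 at 48 h, against -0.11, -0.32 and -0.33 in the early shams and -0.11 in the 48 h sham. All arrays of 6 and 12 h lay above the 4 shams, though 12 h replicate 1 was no higher than the 6 h arrays. The difference was 0.46 ± 0.15 at 6 h (adjusted p = 0.153) and 0.69 ± 0.15 at 12 h (adjusted p = 0.0191). The 12 h call was lost on removing injured 12 h replicate 2, the 6 h sham or the 12 h sham (highest adjusted p 0.0876).

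The 3 Ifit genes lie close together on chromosome 1 in GRCr8. Ifit3 was at 0.12, -0.12 and 0.13 at 3 h, 0.75, 1.65 and 1.37 at 6 h, 0.97, 2.54 and 1.46 at 12 h and -1.02, -0.84 and -1.26 at 48 h, against -0.66, -0.98 and -0.60 in the early shams and -1.01 in the 48 h sham. It was 1 of 2 genes of the 10, with Mx2, whose 3 h arrays all lay above the early shams, a pattern that 7.48% of all genes showed. Its difference of 0.79 ± 0.31 at 3 h did not pass (adjusted p = 0.417), while 2.00 ± 0.31 at 6 h (adjusted p = 0.00274) and 2.40 ± 0.31 at 12 h (adjusted p = 0.00058, 5.29-fold) did. Both held in all 6 refits lacking a single array, and both were lost where the lone sham of the same time was the control. Without injured 12 h replicate 2, its highest array, the 12 h difference was 1.96.

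Ifit1 was at -0.18, -0.42 and 0.00 at 3 h and 0.00, 0.19 and 0.10 at 6 h. It was at 0.11, -0.13 and 0.39 at 12 h and -0.17, 0.06 and -0.21 at 48 h. The early shams were at -0.16, 0.02 and -0.26, and the 48 h sham, at 0.19, lay above all 48 h injured arrays. Ifit1 was the 1 gene of the 10 whose 12 h arrays overlapped with the early shams. Its 12 h difference was 0.26 ± 0.14 (adjusted p = 0.315), with a 95% interval of -0.04 to 0.55. Ifit2 was at -0.02, -0.245 and 0.17 at 3 h and 0.335, 0.365 and 0.175 at 6 h. At 48 h it was at 0.095, -0.61 and -0.655, against -0.09 in the 48 h sham. It was at 0.47, 0.01 and 0.80 at 12 h, against -0.44, -0.17 and -0.02 in the early shams, which do not overlap. The 12 h and 48 h arrays of Ifit2 did overlap. Its difference of 0.63 ± 0.21 did not pass (adjusted p = 0.109), and its 95% interval ran from 0.18 to 1.09. The intervals of Ifit1 and Ifit2 at 12 h end below the 1.74 at which that of Ifit3 begins. The difference between these genes was not tested.

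For the GTPase genes Mx1 and Mx2, 1 array, replicate 1, gave most of the 12 h mean. Mx1 was at -0.31, -0.07 and -0.38 at 3 h, -0.12, 0.03 and 0.08 at 6 h, 1.45, 0.19 and 0.06 at 12 h and 0.59, 0.30 and -0.16 at 48 h, against -0.16, -0.03 and -0.28 in the early shams and 0.07 in the 48 h sham. Its 12 h difference of 0.72 ± 0.28 (adjusted p = 0.164) was 0.28 without replicate 1. Mx2, as the mean of its probe sets, was at 2.78, 0.12 and -0.07 in the 12 h arrays, against -0.29, -0.26 and -0.37 in the early shams. Its 12 h difference of 1.25 ± 0.56 (adjusted p = 0.226) was 0.33 without replicate 1.

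The 2 probe sets of Mx2 gave different pictures. Probe set 1369202_at was at 0.28, -0.08 and 0.89 at 3 h, 1.89, 2.07 and 0.00 at 6 h, 4.63, -0.06 and -0.18 at 12 h and 1.37, 0.54 and -0.41 at 48 h, against -0.18, 0.00 and -0.17 in the early shams and -0.27 in the 48 h sham. Its arrays split within every injured time, some above and others at sham values. Probe set 1387283_at was at -0.20, -0.31 and -0.17 at 3 h and 0.05, 0.04 and -0.04 at 6 h. It was at 0.92, 0.30 and 0.05 at 12 h and 0.31, -0.06 and 0.18 at 48 h. In the early shams it was at -0.40, -0.52 and -0.57, below every injured array, and in the 48 h sham at 0.05. Tested by itself, adjusted over all probe sets, it was higher at 12 h by 0.92 ± 0.17 (adjusted p = 0.00641) and at 48 h over the early shams by 0.64 ± 0.17 (adjusted p = 0.0299), but by 0.09 ± 0.23 over the 48 h sham (adjusted p = 0.974), while 1369202_at was not called (1.58 ± 0.97 at 12 h, adjusted p = 0.419). Both probe sets were highest in 12 h replicate 1. The probe sets of Ifit2 gave 0.66 ± 0.18 (adjusted p = 0.0546) and 0.61 ± 0.26 (adjusted p = 0.221) at 12 h.

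**Figure D2:**
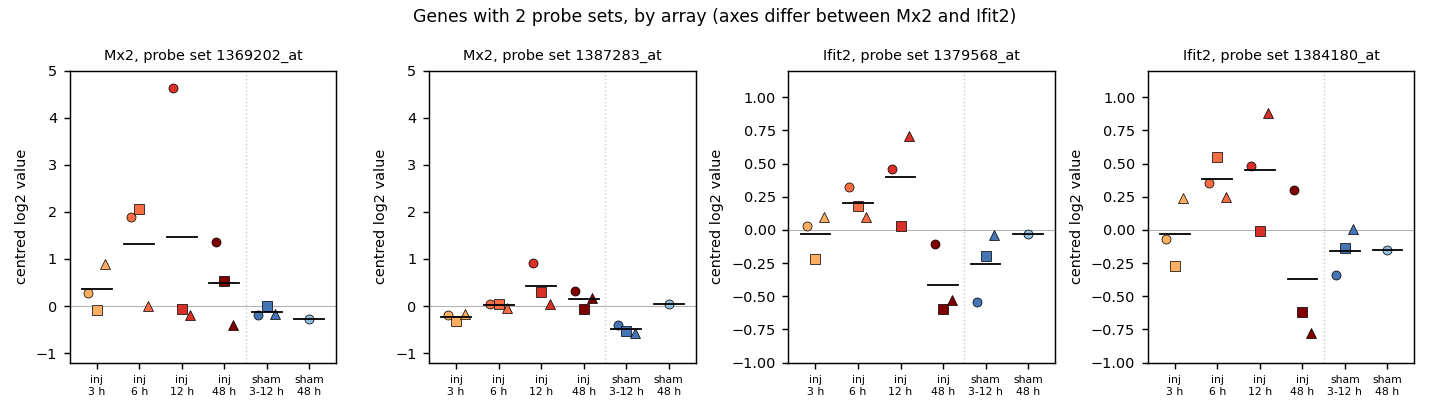
Centred log2 value (vertical axis) of each probe set of Mx2 and Ifit2 by array, grouped as injured 3, 6, 12 and 48 h, early shams and 48 h sham, with a line at the mean. Probe set 1369202_at of Mx2 reaches 4.63 in 1 array of 12 h and lies near 0 in the others of that time. Probe set 1387283_at lies above the early shams in the injured arrays of every time and in the 48 h sham.

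In all, 8 of the 10 genes had every 6 h array above every early sham and 9 of 10 had every 12 h array there, against 10.8% and 10.5% of all genes. The mean of the 10 genes per array was -0.15, -0.34 and -0.02 at 3 h, 0.50, 0.82 and 0.55 at 6 h, 1.52, 1.11 and 1.03 at 12 h and 0.20, -0.14 and -0.32 at 48 h, against -0.31, -0.30 and -0.42 in the early shams and -0.13 in the 48 h sham. The highest 12 h array was not the same for all genes. Replicate 1 was highest for Mx1, Mx2, Isg15 and Rsad2, replicate 2 for Ifit3, Irf7 and Usp18, and replicate 3 for Ifit1, Ifit2 and Oasl.

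**Figure D3:**
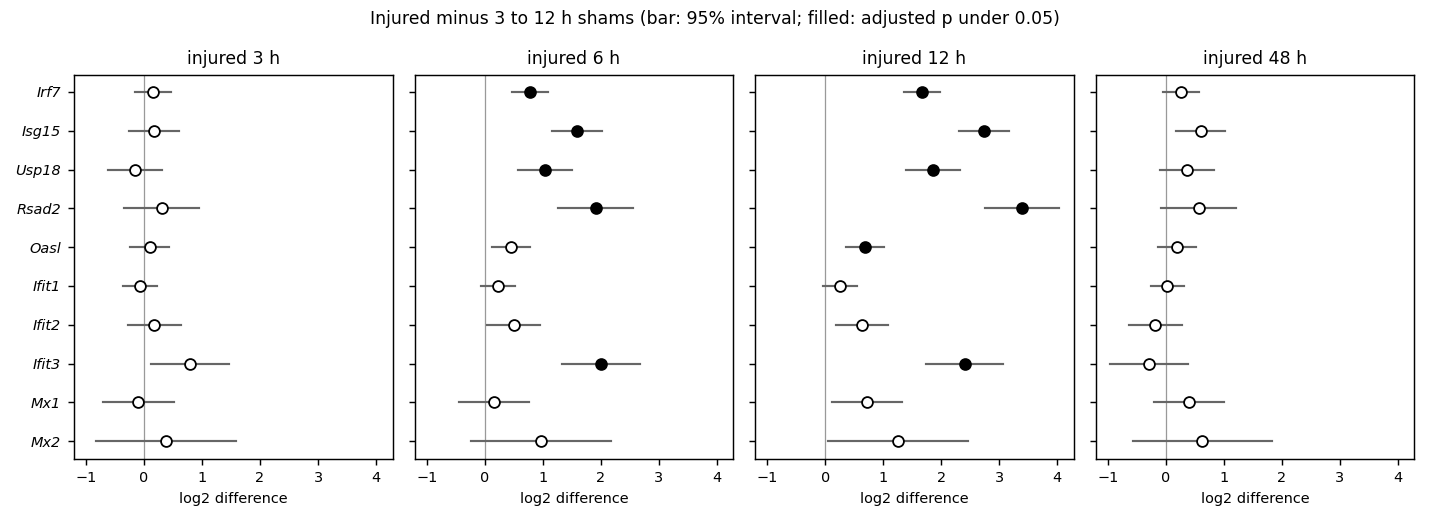
Log2 difference of injured arrays from the early shams (horizontal axis) for the 10 genes (rows) at 3, 6, 12 and 48 h, with 95% intervals from the linear model and filled points where the adjusted p is under 0.05. Filled points number 0, 5, 6 and 0.

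The timing was tested between injured arrays directly. From 3 to 6 h, 3 of the 10 genes rose (0.795% of all genes did), namely Isg15 by 1.43 ± 0.20 (adjusted p = 0.00396), Rsad2 by 1.61 ± 0.30 (adjusted p = 0.0209) and Usp18 by 1.19 ± 0.22 (adjusted p = 0.0192). Isg15 held in all 6 refits lacking a single array, and Rsad2 and Usp18 in 2 each (highest adjusted p 0.117). Both were lost on removing either of replicates 1 and 2 of 3 h or replicate 2 of 6 h, Rsad2 also on removing 6 h replicate 1 and Usp18 on removing 6 h replicate 3. From 6 to 12 h limma called 0 of the 10 higher, and 0% of all genes, while 4 of the 10, and 1249 of all genes, had an unadjusted p under 0.05. These were Rsad2 at 1.48 ± 0.30 (adjusted p = 0.143), Isg15 at 1.15 ± 0.20 (0.0731), Irf7 at 0.89 ± 0.14 (0.0607) and Usp18 at 0.81 ± 0.22 (0.315), and in these 4 every 12 h array lay above every 6 h array, as in 6.48% of all genes. By size of rise over this step, Rsad2 ranked 3 and Isg15 ranked 13 of 14218 genes. Leaving out 12 h replicate 2 brought Rsad2 past the threshold, and leaving out 12 h replicate 3 brought Isg15 and Irf7 past it.

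Between 3 and 12 h, 6 of the 10 rose, against 4.82% of all genes: Rsad2 by 3.09 ± 0.30, Isg15 by 2.58 ± 0.20, Usp18 by 2.01 ± 0.22, Ifit3 by 1.61 ± 0.31, Irf7 by 1.51 ± 0.14 and Oasl by 0.60 ± 0.15 (adjusted p from 1.74e-05 to 0.03). The first 5 held in each refit lacking a single array. Oasl held in 2 of 6 (highest adjusted p 0.112), and was lost on removing replicate 1 or 2 of 3 h or replicate 2 or 3 of 12 h.

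From 12 to 48 h, 7 of the 10 fell, against 7.14% of all genes. At 48 h Rsad2 was lower than at 12 h by -2.82 ± 0.30 (adjusted p = 0.000121), Ifit3 by -2.70 ± 0.31 (0.000194), Isg15 by -2.14 ± 0.20 (5.66e-05), Usp18 by -1.49 ± 0.22 (0.000787) and Irf7 by -1.41 ± 0.14 (9.07e-05). In these 5 every 48 h array lay below every 12 h array, as in 13.2% of all genes. Ifit2 (-0.82 ± 0.21, adjusted p = 0.0199) and Oasl (-0.50 ± 0.15, 0.0412) also passed. Neither was called with a limit of at least 2-fold or with only the 2 groups in the fit. By themselves, adjusted over all probe sets, those of Ifit2 gave -0.81 ± 0.18 (1379568_at, adjusted p = 0.00913) and -0.82 ± 0.26 (1384180_at, 0.052). Ifit2 lost its call on removing 12 h replicate 3, 48 h replicate 2 or 48 h replicate 3 (highest adjusted p 0.0777), and Oasl held on removing 12 h replicate 1 but on removing no other array (highest adjusted p 0.139).

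**Figure D4:**
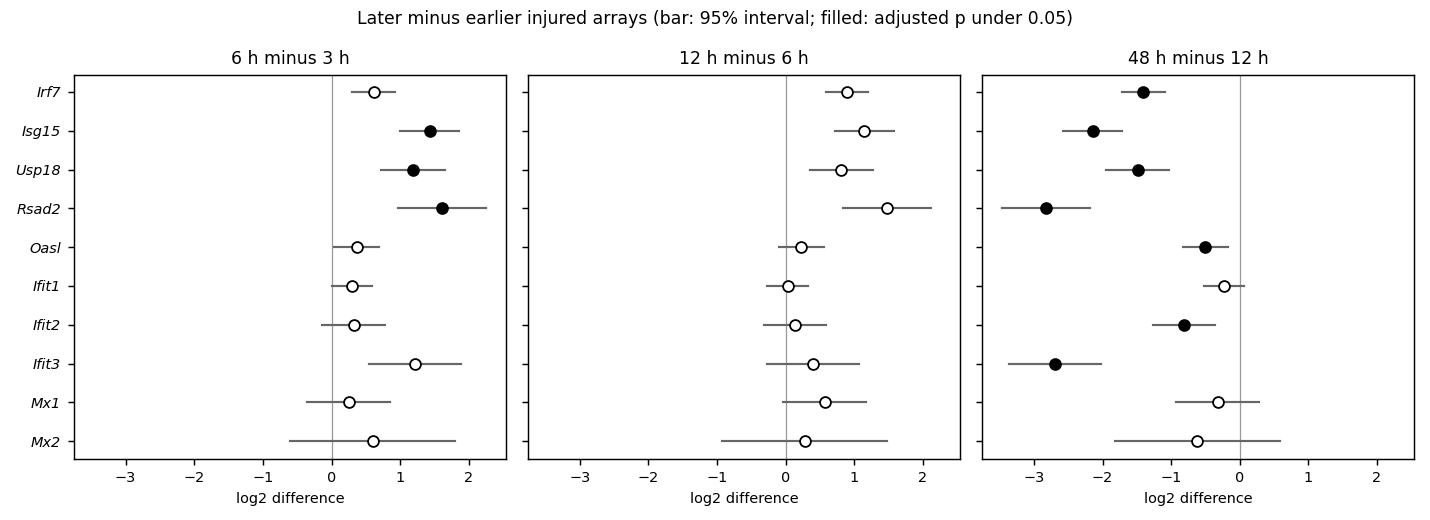
Log2 difference between later and earlier injured arrays (horizontal axis) for the 10 genes (rows) over the steps 6 h minus 3 h, 12 h minus 6 h and 48 h minus 12 h, with 95% intervals and filled points where the adjusted p is under 0.05. Filled points number 3 in the first step, 0 in the second and 7 in the third, where they lie below 0.

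At 48 h the members were compared with both controls. Against the 48 h sham, the study's own choice, limma called 0 of the 10 and 0% of all genes higher. Of the 10, 0 had an unadjusted p under 0.05, and of all genes 1061 did. Differences ran from -0.30 to 0.43 with a median of 0.01, and the test rests on a lone sham, whose spread had to be taken from the remaining groups. Against the early shams limma called 0 of the 10 higher, whereas 6.37% of all genes were, and 1 of the 10, Isg15, had an unadjusted p under 0.05, as had 3603 of all genes. Isg15 lay 0.60 ± 0.20 above the early shams (adjusted p = 0.0766, 95% interval 0.17 to 1.03) and was called without 48 h replicate 3. Isg15 and Mx2 were the 2 genes whose 48 h arrays all lay above the early shams (14.7% of all genes). The 95% intervals of Rsad2 (-0.08 to 1.21) and Usp18 (-0.11 to 0.83) leave room for a remaining rise, and that of Ifit3 was -0.96 to 0.37.

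The 48 h sham itself lay above all 3 early shams in 7 of the 10 genes, against 27.4% of all genes, with a median difference of 0.27 beside -0.003 over all genes. With limma 0 of the 10 and 0% of all genes were called higher in this comparison, in which 0 of the 10 and 973 of all genes had an unadjusted p under 0.05. Where 48 h was set against the 48 h sham and 12 h against the pooled early shams, the fall from 12 to 48 h was called in 3 of the 10 genes, Isg15 (-2.45, adjusted p = 0.00823), Rsad2 (-3.20, 0.0186) and Irf7 (-1.75, 0.00823), and not in Usp18 (-1.87, 0.0688) or Ifit3 (-2.43, 0.109). Of all 14218 genes, 29 were called in that comparison, counting both directions. The comparison was added after the data were seen.

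The other genes of the pathway were taken from 9 lists of 98 genes, of which 76 were measured by probe sets of a single symbol. Of 8 type I interferon genes listed, 2 were measured, Ifnb1 and Ifnk, and the alpha interferons were not analysed here. Neither these 2 nor Ifng was called at 3, 6, 12 or 48 h. Ifnb1, the beta interferon, differed by -0.05, 0.04 and -0.16 at 3, 6 and 12 h (SE 0.09, adjusted p = 0.348 at 12 h), Ifnk by 0.23, 0.19 and 0.16, and Ifng, the type II interferon, by 0.02, 0.02 and 0.01. Whether these transcripts were detected at all cannot be read from centred values. Of the receptors, 0 of 4 were called at 3, 6 or 12 h. Ifnar2 came closest, at 0.51 ± 0.13 at 6 h (adjusted p = 0.0508), Ifnar1 was at -0.08 and 0.06 at 6 and 12 h, Ifngr2 at 0.30 and 0.41, and Ifngr1 at -0.74 at 3 h (adjusted p = 0.193).

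Among 10 measured sensors of viral nucleic acid and their adaptors, 3 were higher at 12 h. Myd88, the adaptor of most toll-like receptors, rose by 1.83 ± 0.30 (adjusted p = 0.00312), Rig1, the cytoplasmic RNA sensor RIG-I, by 1.62 ± 0.17 (0.000195) and its relative Dhx58 by 0.29 ± 0.06 (0.0211). Rig1 was at -0.16 at 3 h and 0.76 ± 0.17 at 6 h (adjusted p = 0.0331), and fell by 1.10 from 12 to 48 h (0.00128). Of 9 signalling genes and transcription factors, 6 were higher at 12 h, led by Irf1 (2.81 ± 0.34), Irf9 (1.75 ± 0.20) and Irf8 (1.35 ± 0.27). Irf1 had already risen by 2.29 ± 0.34 at 3 h (adjusted p = 0.00578), as had Irf8 by 1.66 ± 0.27 (0.0105). Irf9, the DNA-binding part of the type I complex, was at -0.25 ± 0.20 at 3 h and 1.12 ± 0.20 at 6 h (0.00691).

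Of 7 genes listed as inhibitors of signalling, 3 were higher at 12 h: Tnfaip3, which acts mainly on NF-kB (1.48 ± 0.23, after 2.72 ± 0.23 at 3 h and 2.93 ± 0.23 at 6 h, with the 12 h arrays below those of 3 h by -1.24, adjusted p = 0.00754), Socs3, which blocks JAK kinases (1.07 ± 0.20), and the phosphatase gene Ptpn2 (0.48 ± 0.11). The 7 include Isg20l2, which is not known to inhibit interferon signalling. Of 4 enzymes that attach Isg15, 1 was called at 12 h. This was Ube2l6, the conjugating enzyme, which was higher by 0.87 ± 0.19 (adjusted p = 0.019) and rose further from 12 to 48 h by 0.69 ± 0.19 (0.0276), to 1.56 ± 0.19 over the early shams. Against the 48 h sham it was at 0.80 ± 0.27 (adjusted p = 0.508), and the 48 h sham was at 0.76 ± 0.27 over the early shams.

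Of 31 other antiviral effectors 0 were called at 3 h, 8 were higher at 6 h and 15 at 12 h, with a median at 12 h of 0.65. Dtx3l, a ubiquitin ligase, rose by 2.73 ± 0.23 (adjusted p = 2.81e-05) at 12 h, its partner Parp9 by 2.11 ± 0.23 (0.000214) and Rtp4, a receptor-transporting protein, by 2.39 ± 0.21 (3.01e-05). In this list 1 gene was lower at 12 h, against 1.38% of all genes. It was Ifi27 at -1.13 ± 0.21 (adjusted p = 0.00699), named after its value was seen. At 48 h 15 of the 31 were higher than in the early shams, against 6.37% of all genes and 0 of the 10 members. Over the 48 h sham 0 of the 31 were higher, as were 0% of all genes. Of the 15, Ifitm1, a membrane protein that hinders viral entry, was the largest at 2.57 ± 0.52 over the early shams. It was at 0.25 ± 0.73 over the 48 h sham, and was also named after its value was seen.

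Of 8 GTPase and chemokine genes that interferon gamma induces, 1 was higher at 3 h and 6 at both 6 and 12 h. The T cell chemokine genes Cxcl10 (4.62 ± 0.64) and Cxcl11 (3.45 ± 0.48) and the guanylate-binding protein gene Gbp2 (4.25 ± 0.53) led at 12 h. Cxcl11 had risen by 2.81 ± 0.48 at 3 h (adjusted p = 0.0152), when Rsad2 was at 0.30 ± 0.30 (0.842).

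**Figure D5:**
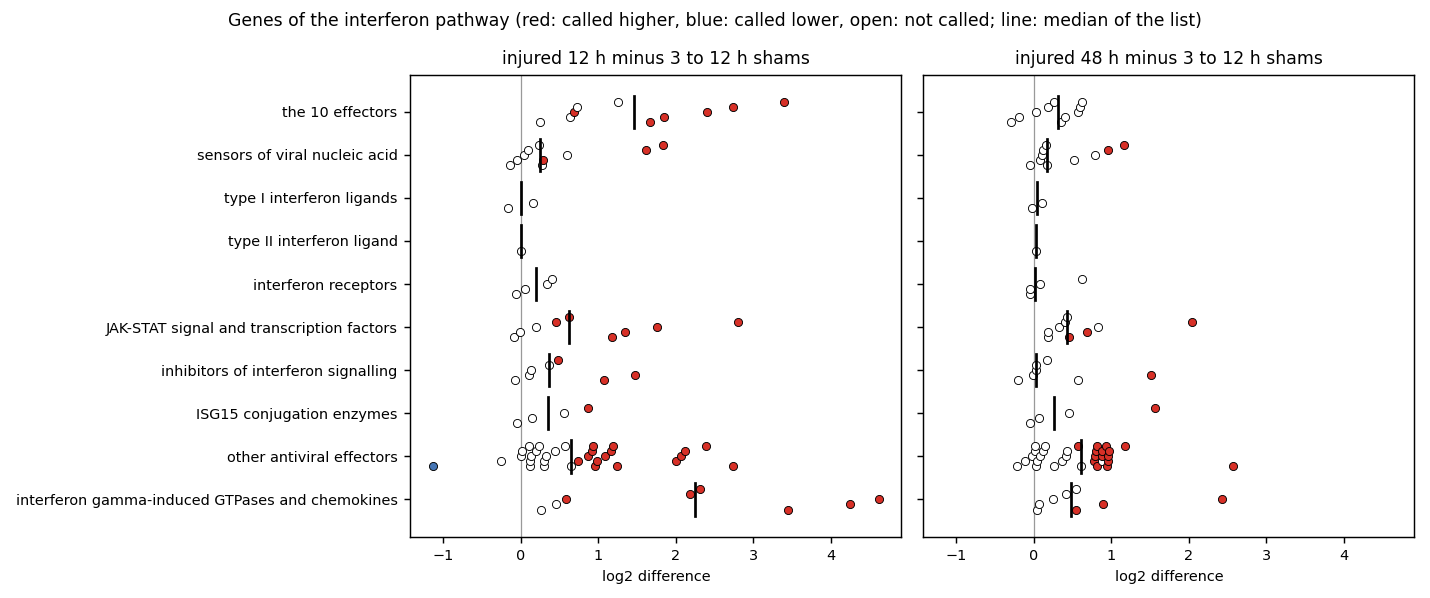
Log2 difference from the early shams (horizontal axis) of the 10 effectors and of each measured gene in 9 lists of the interferon pathway (rows), in injured arrays of 12 h and of 48 h. Red points were called higher, blue lower, open points were not called, and the line is the list's median. At 12 h the effectors have a median of 1.46 and the ligands lie near 0. At 48 h there are 15 red points in the other antiviral effectors and 0 in the 10, where 6.37% of all genes were called higher.

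The genes nearest to the group were sought over all 16 arrays, by the root mean square difference between a gene's values and the mean of the 10, each with its own mean subtracted. This measure rewards a like size of change as well as a like course. The 8 nearest outside the group were Sypl2 (0.265), Oas1a (0.273), Sod2 (0.275), Rig1 (0.276), Tap1 (0.282), Tnip2 (0.283), Ralgds (0.287) and Slc1a5 (0.288), in log2 units. Of the 10 themselves, only Irf7 (0.158) and Usp18 (0.257) lay nearer to the mean than these 8. The other members lay farther from it than all 8. Because size counts in this measure, this does not show that their courses differed. Likeness of course apart from size was not tested. Oas1a is an oligoadenylate synthetase, Tap1 carries peptides for antigen presentation and Sod2 is the mitochondrial superoxide dismutase. At 12 h these 8 genes stood between 0.93 (Tap1) and 1.62 (Rig1) above the early shams.

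Markers of other cells moved over the same hours. The mean of 5 neutrophil markers lay between 1.30 and 2.49 in the 6 h arrays and between 1.77 and 2.27 at 12 h. At 3 h it lay between -0.30 and -0.16, and at 48 h between -0.29 and 0.94. It was at -0.43 to -0.18 in the early shams and -0.02 in the 48 h sham. At 12 h 3 of the 5 were called higher, S100a9 (5.67), S100a8 (4.33) and Cxcr2 (1.17). Camp (0.21) and Mmp8 (0.18) were not called, so the mean rests mostly on S100a8 and S100a9. The mean of 5 microglia markers lay between -1.17 and -0.57 at 6 h and between -0.94 and -0.72 at 12 h. At 48 h it lay between 1.08 and 1.71, against 0.08 to 0.53 in the early shams and 0.63 in the 48 h sham. At 12 h 3 of the 5 were called lower. At 48 h 3 were called higher than in the early shams, and 0 than in the 48 h sham. The mean of 5 monocyte and macrophage markers lay between 0.19 and 1.26 at 12 h and between 0.04 and 1.38 at 48 h. It was at -0.65 to -0.45 in the early shams and -0.27 in the 48 h sham. At 12 h 1 of the 5 was called higher, Cd14 (3.80). At 48 h 2 were called higher than in the early shams, Cd68 (2.98) and Cd14 (2.68), and 0 than in the 48 h sham. Of 2 erythrocyte markers, Hbb was higher at 3, 6 and 12 h (3.40, 3.88 and 2.53) and Alas2 was not called. The list's mean lay between 0.36 and 1.13 at 3 h, between 0.79 and 1.73 at 6 h and between -0.49 and 0.81 at 12 h, against -1.45 to -0.67 in the early shams. Of 4 markers of meninges and fibroblasts 3 were lower at 12 h, and the mean lay between -1.09 and -0.02 at 12 h and between 0.76 and 1.39 at 48 h, against 0.20 to 0.55 in the early shams and 1.10 in the 48 h sham. Of 5 astrocyte markers, Gfap was higher (1.16 ± 0.24) and Aldh1l1 lower (-0.50 ± 0.11) at 12 h. Of 4 endothelial markers, Cldn5 was lower at 6 and 12 h (-1.52 and -0.85), and Flt1 was higher at 6 h (0.69). Of 3 choroid plexus markers 0 were called at 3, 6 or 12 h, though their mean lay between 0.39 and 2.13 at 3 h and between 0.06 and 1.86 at 12 h, against -0.06 in each early sham. Of 5 neuronal and 4 oligodendrocyte markers 0 were called at 12 h. Of 5 markers of T and NK cells 0 were called at 12 h, and of 2 measured markers of B and plasmacytoid dendritic cells 0. The part of any of these cells in the values of the 10 genes was not tested.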

How the data were processed

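The submitters' processing notes name RMA (background correction, quantile normalization and a summary per probe set), with no version. The deposited values are log2 values by assumption, since the base is not stated; per the file itself, every one of the 31099 probe sets has a median of 0 over the 16 arrays, so levels, detection and a filter on dim probe sets are out of reach. Arrays have no depth, and their number limits the precision.

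Of the probe sets listed with a gene, 20832 had 1 symbol and were used, and 436 with several symbols were not. The gene identifier gave a current symbol for 20764 of the 20832, and probe sets of a gene were averaged, giving 14218 genes. The tests used limma 3.58.1 (R 4.3.3), in a single model of 6 groups with 10 residual degrees of freedom, and p-values were adjusted over all genes by Benjamini and Hochberg. The fit was tested on simulated data. Intervals are 95% intervals of the moderated test.

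The 10 genes, the lists and the tests were chosen with earlier results of these data known. Named besides the 10 were all ligands and receptors, up to 3 called genes of each list with the largest change at 12 h, and the 8 nearest genes. Some cell markers and Isg20l2 were also named. RIG-I was listed by its older symbol Ddx58 after the table showed it as Rig1. Replicate numbers were counted within each time and the labels do not pair them. Alternatives were other probe set rules, normalizations, thresholds, fits and shams, and leaving out each array.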

Additional observations from a re-analysis of the deposited data

Results flagged for a closer look

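Some effects of injury differed between 2 times by a direct test between injured arrays, which share the early shams as control. From 3 to 6 h these were Isg15 (log2 difference 1.43), Rsad2 (1.61) and Usp18 (1.19). Between 3 and 12 h they were Ifit3 (1.61), Isg15 (2.58), Rsad2 (3.09), Oasl (0.60), Usp18 (2.01) and Irf7 (1.51). With 48 h set against the 48 h sham and 12 h against the pooled early shams, a comparison added after the data were seen, the effect at 48 h was lower than that at 12 h in Isg15 (-2.45), Rsad2 (-3.20) and Irf7 (-1.75), and this rests on a single 48 h sham. That comparison called 29 of all 14218 genes, counting both directions. No group held the 4 arrays needed to test for a single array that stands apart.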

How the results depend on the processing

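Of 1380 values of single genes under an alternative, 0 changed direction with a call on either side, 54 lost their call, 16 gained one and 1310 did neither. The count of the 10 genes called stayed within 1.5 times except as follows. With only the groups compared in the fit it was 1 at 3 h (Ifit3) against 0, and 5 from 3 to 6 h against 3, as also with quantile normalization (Ifit3 and Irf7 added). At 6 h it was 1 against 5 when the control was the 6 h sham alone, and Isg15 remained. At 12 h that choice of the 12 h sham alone gave 4 against 6, without Ifit3 and Oasl. With every probe set by itself it was 1 at 48 h over the early shams against 0 (Mx2). With 48 h over the 48 h sham and 12 h over the pooled early shams it was 3 from 12 to 48 h against 7. Leaving out 1 array gave 3 to 5 genes at 6 h (3 without injured 6 h replicate 2), 5 to 6 at 12 h, 0 to 1 at 48 h over the early shams, 1 to 4 from 3 to 6 h, 0 to 2 from 6 to 12 h, 5 to 7 from 12 to 48 h and 5 to 6 between 3 and 12 h. With the replicate block, over the injured arrays, the counts were 2, 0, 6 and 5 for the steps 3 to 6, 6 to 12 and 12 to 48 h and for 12 against 3 h, beside 3, 0, 6 and 6 for the same arrays without it. Same-numbered arrays correlated at -0.19 to 0.26 in their deviations, with 3 of 18 pairs over 0.1, so the numbers were not taken to pair the arrays. The total of all genes called moved more. At 3, 6 and 12 h it was 83, 379 and 692, and 9, 70 and 77 with the sham of the same time alone. It was 198 and 918 at 3 and 6 h with quantile normalization, and 704 against 170 from 3 to 6 h. It was 29 against 2180 from 12 to 48 h with the 48 h sham as control for 48 h and the pooled early shams for 12 h. A limit of at least 2-fold gave 242 against 1377 at 48 h over the early shams and 158 against 1142 between 3 and 12 h. Leaving out 1 array gave 33 to 117 at 3 h, 177 to 274 at 6 h, 287 to 1230 at 12 h, 482 to 2054 at 48 h over the early shams, 1 to 129 against 0 over the 48 h sham, 39 to 157 from 3 to 6 h, 1339 to 2442 from 12 to 48 h and 372 to 1405 between 3 and 12 h. The cause of these changes was not tested.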
